A study of Homo sapiens with 8 samples.

Results

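The cells studied were HCT116, a human cell line from a colorectal carcinoma. They expressed 1 of 2 short hairpin RNAs (shRNA) against MAPKAPK2, the gene of the kinase MK2, and the cells with shRNA 2 were compared with the cells with shRNA 1. Each shRNA was read in 2 RNA-seq libraries, so 4 of the 8 libraries of the series enter the comparison, and all 4 came from medium with 20 mM glucose. The other 4 libraries came from HCT116 cells that carried a control shRNA and had been kept for 24 h without glucose (2 libraries, 0 mM) or with it (2 libraries, 20 mM). The time that the MAPKAPK2 shRNA cells spent at 20 mM glucose, the hairpin sequences, and whether each line is a clone or a pool are not given in the sources used here. Levels are FPKM, fragments per kilobase of exon scaled to the library size, and a gene was included when it reached an FPKM of 1 in at least 2 of the 4 MAPKAPK2 shRNA libraries. The rule kept 14653 of the 58735 genes in the table, 11139 of them protein-coding.

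MK2 is a serine/threonine kinase that the p38 MAP kinases bind and activate in stress and cytokine signalling. It phosphorylates the small heat shock protein HSPB1 and RNA-binding proteins such as ZFP36, and it is best known for holding AU-rich mRNAs of inflammatory genes stable. Cells with different hairpins against the same gene share the intended target, while each hairpin can also act on transcripts of its own, and separately derived cell lines can differ for other reasons. A direct comparison shows how the lines differ, and does not assign a difference to the hairpins.

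The libraries of the series held 14252316 to 19975449 reads in genes. The labels do not say that the replicates are separate cultures, so p-values measure the spread between libraries, which may be technical. Across genes, Pearson's r of log2(FPKM + 1) was 0.970 between the shRNA 1 libraries, 0.964 between the shRNA 2 libraries and 0.925 to 0.930 between the lines (genes are not independent replicates). The replicates of shRNA 2 lay farther apart, with a median absolute log2 difference of 0.23 against 0.127 for shRNA 1. Mitochondrially encoded genes took 11.1% and 9.62% of the reads with shRNA 1, 7.06% and 9.10% with shRNA 2, and 6.83% and 7.82% in the 20 mM controls. The reads in genes came to 0.970 and 0.932 times the size used in the deposited FPKM with shRNA 1, and to 1.04 and 1.05 times that size with shRNA 2. Of the line's own markers, EPCAM, KRT8, KRT18 and KRT19 were high in all 4 libraries, and CDX2, an intestinal transcription factor, stood at 4.75 to 6.48 FPKM. Leukocyte markers summed to 0.481 to 1.30 FPKM per library over 10 genes, with CD14 the highest at 0.648 FPKM and 2 genes at 0 in all 4. Fibroblast and muscle markers summed to 5.38 to 6.81 FPKM over 10 genes, 3 of them at 0 in all 4. Endothelial markers summed to 2.58 and 2.41 FPKM with shRNA 1 and 5.29 and 4.00 with shRNA 2 over 7 genes. Nearly all of it came from ESAM, an adhesion molecule called higher with shRNA 2 (0.72, adjusted p = 0.0136). That call was lost without shRNA 1 replicate 1 or 2 (differences 0.777 and 0.673). It was also lost with only the 4 shRNA libraries in the model (adjusted p = 0.0547). PECAM1, CDH5, VWF and KDR were each under 0.1 FPKM in all 4. Neural and neuroendocrine markers summed to 78.2 and 74.8 FPKM with shRNA 1 and 46.9 and 40 with shRNA 2 over 11 genes. SCG2 held the highest value, at 60.1 and 56.6 FPKM with shRNA 1 against 10.3 and 8.04 with shRNA 2. The fall of the sum was thus that of SCG2, and the other markers together were higher with shRNA 2. Of the 4 tested, 1 was called higher and 1 lower, with differences from −2.55 to 1.71. The part of other cell types in the results was not tested.

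A difference is given as shRNA 2 minus shRNA 1 on the log2(FPKM + 1) scale, which understates the change of genes with low levels. A gene counts as called at a Benjamini-Hochberg adjusted p under 0.05 in 1 limma model over all 8 libraries. By this measure 3798 genes, 25.9% of those tested, differed between the hairpins, 2217 of them (15.1%) higher with shRNA 2 and 1581 (10.8%) lower. Of these, 478 were higher and 350 lower by at least 1, which is a doubling or more, and the median over all genes tested was 0.04. With only the 4 shRNA libraries in the model, 1814 genes (12.4%) were called, 1759 of them with the same sign as in the full model. The balance of higher and lower genes depends on the scaling: after division by the reads in nuclear genes in place of the deposited library size, 1446 genes (9.87%) were higher and 2585 (17.6%) lower, the share of higher genes among the calls went from 58.4% to 35.9%, and the median of all genes moved by −0.141. No gene called under both scalings changed sign. For reference, against the controls at 20 mM, which both comparisons share, 11.0% of these genes were called higher and 11.6% lower with shRNA 1, and 12.8% higher and 8.27% lower with shRNA 2. Whether the unequal mitochondrial share has a part in the counts was not tested. At the threshold of the rule, KATNAL2 was just inside, with a second-highest value of 1.00 FPKM, and WDR78 just outside, with 0.998. A total of 608 genes were included only through the shRNA 1 libraries and 352 only through those of shRNA 2. Without them 3394 of 13693 genes were called. Any gene described below that was under 1 FPKM in both libraries of 1 line is of this kind. Such a gene was tested because it was higher in 1 line, so its p-value is not free of the rule.

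**Figure D1:**
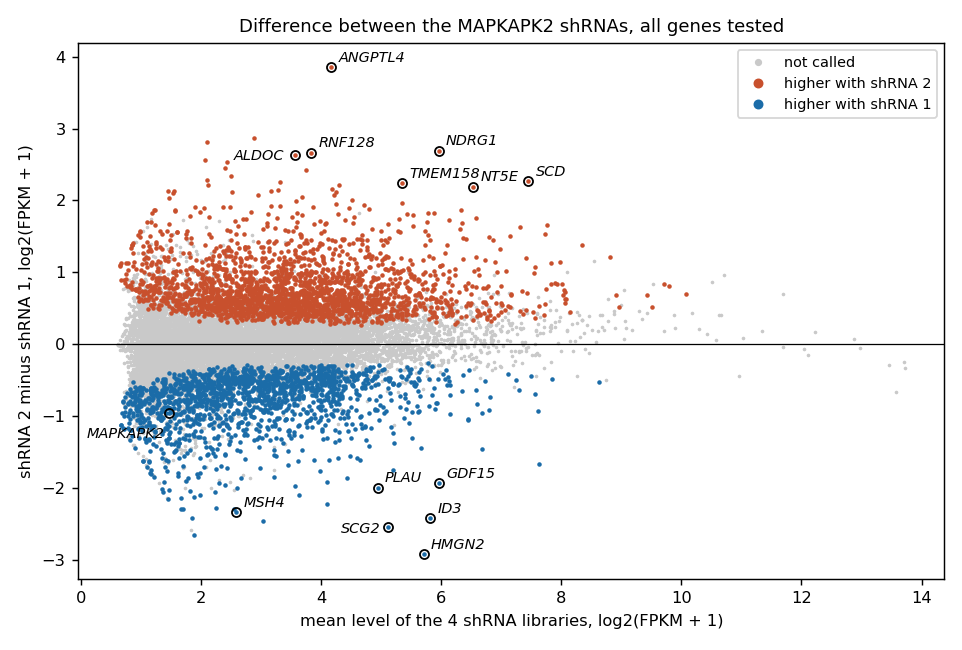
Difference between the MAPKAPK2 shRNAs (shRNA 2 minus shRNA 1, log2(FPKM + 1)) of each of the 14653 genes tested against its mean level in the 4 shRNA libraries on the same scale; orange genes were called higher with shRNA 2, blue genes higher with shRNA 1, grey genes were not called. Circles mark MAPKAPK2 and 13 genes from the extremes, of which ANGPTL4 lies at the top and HMGN2 at the bottom.

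MAPKAPK2 itself (chr1:206684944-206734283, GRCh38) was low in both lines and lower with shRNA 2. It stood at 2.77 and 2.54 FPKM with shRNA 1, 0.982 and 0.800 with shRNA 2 and 16.4 and 16.2 in the controls. Both lines lay far under the controls without overlap, and the shRNA 2 libraries also lay under those of shRNA 1 (difference −0.95, SE 0.096, adjusted p = 0.00115). This left 16.3% of the control mean with shRNA 1 and 5.46% with shRNA 2. MAPKAPK2 was included only through the shRNA 1 libraries, where it was higher. MAPKAPK3, the kinase closest to MK2 and also a p38 substrate, was at 30.1 and 29.04 FPKM with shRNA 1, 35.9 and 31.9 with shRNA 2 and 24 and 23.9 in the controls, with no call between the lines (0.19, adjusted p = 0.177). MAPKAPK5, a more distant relative, gave no call either (−0.30, adjusted p = 0.119), although it was called lower after rescaling to nuclear reads (adjusted p = 0.0425); 20.9% of its exon bases overlap ADAM1A.

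MAPK14, p38 alpha, which activates MK2, was higher with shRNA 2, and MK2 substrates differed in both directions. Of 12 tested, 3 were higher (HSPB1, ZFP36 and UBE2J1), 2 lower (ZFP36L2 and TSC2) and 7 not called. MAPK14 was at 7.18 and 6.99 FPKM with shRNA 1, 11.8 and 12.2 with shRNA 2 and 8.84 and 8.44 in the controls. The shRNA 2 libraries were above all 4 others (difference 0.68, SE 0.097, adjusted p = 0.00398). HSPB1, the small heat shock protein, was at 239 and 185 FPKM with shRNA 1, 368 and 289.9 with shRNA 2 and 288 and 294 in the controls. Its shRNA 2 libraries were above those of shRNA 1 but overlapped the controls, and the call (0.63, adjusted p = 0.0322) was kept in 10 of 21 alternative analyses: it was lost, among others, without shRNA 1 replicate 2 (adjusted p = 0.163), without shRNA 2 replicate 1 (adjusted p = 0.102) and without any 1 of the 4 control libraries (adjusted p of 0.0517 to 0.0627). ZFP36, which binds AU-rich mRNAs and promotes their decay, was at 24.5 and 25.2 FPKM with shRNA 1, 36.1 and 32.5 with shRNA 2 and 35.4 and 35.0 in the controls. It was lowest with shRNA 1 (0.45, adjusted p = 0.0108), a call kept in 18 of 21 alternatives. The call was lost without shRNA 1 replicate 1 or 2 (differences 0.425 and 0.467). With only the 4 shRNA libraries in the model it was lost too (adjusted p = 0.07).

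Here and in all lists below, the background over all genes is 15.1% higher and 10.8% lower. For counts rescaled to nuclear reads it is 9.87% higher and 17.6% lower. The lists hold protein-coding genes, and the background was not matched to them in biotype or level. Of 11139 protein-coding genes 2028 were higher and 1251 lower, and of 2931 genes in the highest of 5 bins by level 733 and 286. Set against all genes, a list's share of higher genes can therefore look larger than against genes of its kind. Of 40 tested genes of the p38 and MK2 pathway, 11 were higher with shRNA 2, 5 lower and 24 not called, with a median of 0.17; after rescaling to nuclear reads the counts were 9 and 8. UBE2J1, a ubiquitin-conjugating enzyme of the endoplasmic reticulum that MK2 phosphorylates, had the largest rise of the list, at 6.82 and 7.15 FPKM with shRNA 1, 23.0 and 26.4 with shRNA 2 and 12.0 and 12.4 in the controls (difference 1.69, SE 0.094, adjusted p = 0.000278). DUSP1, a phosphatase that inactivates p38 and JNK, was at 5.87 and 5.83 FPKM with shRNA 1, 13.2 and 12.9 with shRNA 2 and 8.94 and 9.13 in the controls (1.04, adjusted p = 0.000505). For both genes shRNA 1 lay below the controls and shRNA 2 above them. The upstream kinase MAP3K7 (0.94, adjusted p = 0.00444), its binding partner TAB1 (0.88, adjusted p = 0.00233), the phosphatase PPM1D (0.94, adjusted p = 0.00423) and the kinase MKNK2 (0.88, adjusted p = 0.00560) were also higher with shRNA 2. ZFP36L2, a relative of ZFP36, was lower, at 30.8 and 30.0 FPKM with shRNA 1, 13.8 and 17.6 with shRNA 2 and 30.4 and 26.7 in the controls (−0.92, adjusted p = 0.00382). TSC2, an inhibitor of mTORC1, was lower (−0.35, adjusted p = 0.0451), a call kept in 10 of 21 alternatives and lost without any 1 of the 8 libraries. Of 13 genes of the RNA interference machinery, which shRNAs use, AGO4 was higher (0.65, adjusted p = 0.00666) and PRKRA lower (−0.64, adjusted p = 0.00999); without shRNA 1 replicate 1 these adjusted p were 0.0514 and 0.071.

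**Figure D2:**
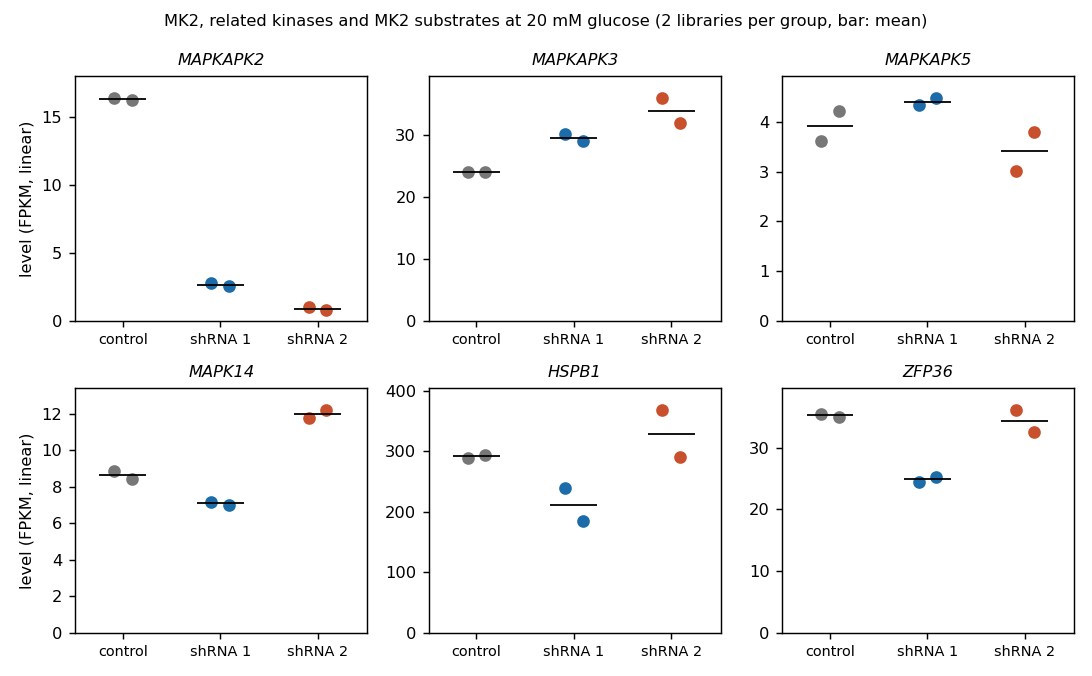
Level (FPKM, linear axis from 0) of MAPKAPK2, MAPKAPK3, MAPKAPK5, MAPK14, HSPB1 and ZFP36 in each library at 20 mM glucose; points are libraries and bars the mean of 2. MAPKAPK2 is at 16.2 to 16.4 FPKM in the controls, 2.54 to 2.77 with shRNA 1 and 0.800 to 0.982 with shRNA 2, while MAPKAPK3 differs little between the lines.

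Among protein-coding genes with at least 5 FPKM in the higher line and no overlap between the 4 libraries, the largest rise with shRNA 2 was in ANGPTL4. ANGPTL4 (chr19:8363289-8374373), a secreted inhibitor of lipoprotein lipase, stood at 1.11 and 1.42 FPKM with shRNA 1, 41.0 and 24.6 with shRNA 2 and 4.94 and 3.60 in the controls. The shRNA 2 libraries were above and the shRNA 1 libraries below both controls (difference 3.86, SE 0.24, adjusted p = 0.000303). NDRG1, a stress-induced gene and established target of hypoxia-inducible factors, was at 15.4 and 15.7 FPKM with shRNA 1, 121 and 92.8 with shRNA 2 and 11.8 and 12.2 in the controls (difference 2.69, SE 0.13, adjusted p = 0.000259). RNF128, a membrane-bound ubiquitin ligase, was at 2.83 and 2.92 FPKM with shRNA 1, 23.7 and 23.5 with shRNA 2 and 4.51 and 5.22 in the controls (difference 2.67, SE 0.094, adjusted p = 0.000154). In both genes shRNA 2 stood alone, far above shRNA 1 and the controls. NT5E, the ecto-nucleotidase CD73 that makes extracellular adenosine, was at 31.9 and 32.3 FPKM with shRNA 1, 137 and 164 with shRNA 2 and 19.6 and 20.4 in the controls (2.19, adjusted p = 0.000259). TMEM158, a membrane protein gene induced by RAS, was at 14.2 and 12.2 FPKM with shRNA 1, 69.5 and 62.6 with shRNA 2 and 7.98 and 7.59 in the controls (2.24, adjusted p = 0.000259). Both were above the controls already with shRNA 1 and several times higher again with shRNA 2. Further genes were mainly raised in shRNA 2 cells: the carboxypeptidase CPM (0.902 and 0.833 FPKM with shRNA 1 against 8.36 and 8.51 with shRNA 2), the adhesion protein MDGA1 (0.524 and 0.636 against 8.60 and 7.81) and the forkhead factor FOXL1 (0.582 and 0.682 against 9.002 and 6.94). CPM, MDGA1 and FOXL1 were included only through the shRNA 2 libraries, where they were higher.

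In other genes of this set shRNA 1 lay below the controls and shRNA 2 above them. FCF1, needed for processing of ribosomal RNA, was at 2.43 and 2.70 FPKM with shRNA 1, 14.8 and 14.8 with shRNA 2 and 9.91 and 12.2 in the controls (difference 2.15, SE 0.11, adjusted p = 0.000273). The table names 10 pseudogene copies of it. NEK7, a kinase of mitosis and of the NLRP3 inflammasome, was at 2.75 and 3.73 FPKM with shRNA 1, 18.9 and 24.6 with shRNA 2 and 9.37 and 10.03 in the controls (difference 2.42, SE 0.20, adjusted p = 0.000613). ZNF185, an actin-associated LIM protein, was at 2.37 and 2.51 FPKM with shRNA 1, 15.7 and 15.3 with shRNA 2 and 7.96 and 8.43 in the controls (2.26, adjusted p = 0.000273). In each the 3 groups did not overlap. The difference from control was −1.75 (adjusted p = 0.000465) with shRNA 1 and 0.40 (adjusted p = 0.0474) with shRNA 2 for FCF1. ARG2, mitochondrial arginase, was at 0.220 and 0.216 FPKM with shRNA 1, 6.49 and 5.91 with shRNA 2 and 1.85 and 1.98 in the controls (2.56, adjusted p = 0.000259), with the controls between the lines; 37.4% of its exon bases overlap VTI1B.

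The largest fall with shRNA 2 was in HMGN2 (chr1:26472450-26475972), which encodes a nucleosome-binding chromatin protein. It stood at 96.9 and 85.8 FPKM with shRNA 1, 11.4 and 10.8 with shRNA 2 and 138 and 147 in the controls. The 3 groups did not overlap, and the level with shRNA 1 was 8.22 times that with shRNA 2 (difference −2.93, SE 0.094, adjusted p = 0.000154). The table holds 36 genes named as pseudogene copies of HMGN2, which could share its reads, so its level is uncertain to that extent. ID3, an inhibitor of basic helix-loop-helix factors, was at 102 and 86.0 FPKM with shRNA 1, 18.6 and 14.9 with shRNA 2 and 84.5 and 86.6 in the controls (difference −2.42, SE 0.15, adjusted p = 0.000302). GDF15, a secreted stress cytokine, was at 102 and 94.5 FPKM with shRNA 1, 27.7 and 22.4 with shRNA 2 and 71.4 and 69.0 in the controls (difference −1.94, SE 0.12, adjusted p = 0.000302). RNF11, a small RING finger protein, was at 31.6 and 34.5 FPKM with shRNA 1, 8.22 and 8.52 with shRNA 2 and 26.4 and 27.7 in the controls (−1.86, adjusted p = 0.000259). In ID3, GDF15 and RNF11 the shRNA 1 libraries stood near or above the controls and those of shRNA 2 far below. GRHL3, a transcription factor of epithelial differentiation, followed the same order (7.31 and 6.29 FPKM with shRNA 1, 1.04 and 1.04 with shRNA 2 and 5.51 and 5.30 in the controls), as did the matrix receptor ANTXR1 (8.83 and 9.19, 1.41 and 2.11 and 5.56 and 5.31) and the transporter SLC16A5 (26.9 and 25.3, 6.46 and 5.85 and 16.2 and 16.0).

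Other genes that were lower with shRNA 2 were high with shRNA 1 against the controls. SCG2, secretogranin II of dense-core vesicles, stood at 60.1 and 56.6 FPKM with shRNA 1, 10.3 and 8.04 with shRNA 2 and 8.03 and 8.90 in the controls (difference −2.55, SE 0.12, adjusted p = 0.000259). KRT13, a keratin of stratified mucosa, was at 8.66 and 8.71 FPKM with shRNA 1, 1.23 and 0.746 with shRNA 2 and 0.657 and 0.521 in the controls (−2.29, adjusted p = 0.000439). MSH4, a MutS homologue that acts in meiosis, was at 8.29 and 9.73 FPKM with shRNA 1, 0.825 and 1.12 with shRNA 2 and 0.952 and 0.396 in the controls (−2.34, adjusted p = 0.000692). For these genes the shRNA 2 libraries were close to the controls, and shRNA 1 alone was high. PLAU, the urokinase plasminogen activator, was at 48.7 and 47.8 FPKM with shRNA 1, 12.7 and 10.1 with shRNA 2 and 6.85 and 6.55 in the controls (−2.0, adjusted p = 0.000336); 31.1% of its exon bases overlap C10orf55. PTGES, prostaglandin E synthase, was at 28.3 and 25.9 FPKM with shRNA 1, 5.71 and 4.36 with shRNA 2 and 8.17 and 7.05 in the controls (−2.23, adjusted p = 0.000297). AVPR2, a vasopressin receptor, was at 5.12 and 5.23 FPKM with shRNA 1, 0.797 and 0.772 with shRNA 2 and 0.637 and 0.624 in the controls (−1.79, adjusted p = 0.000505). AVPR2 was included only through the shRNA 1 libraries.

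**Figure D3:**
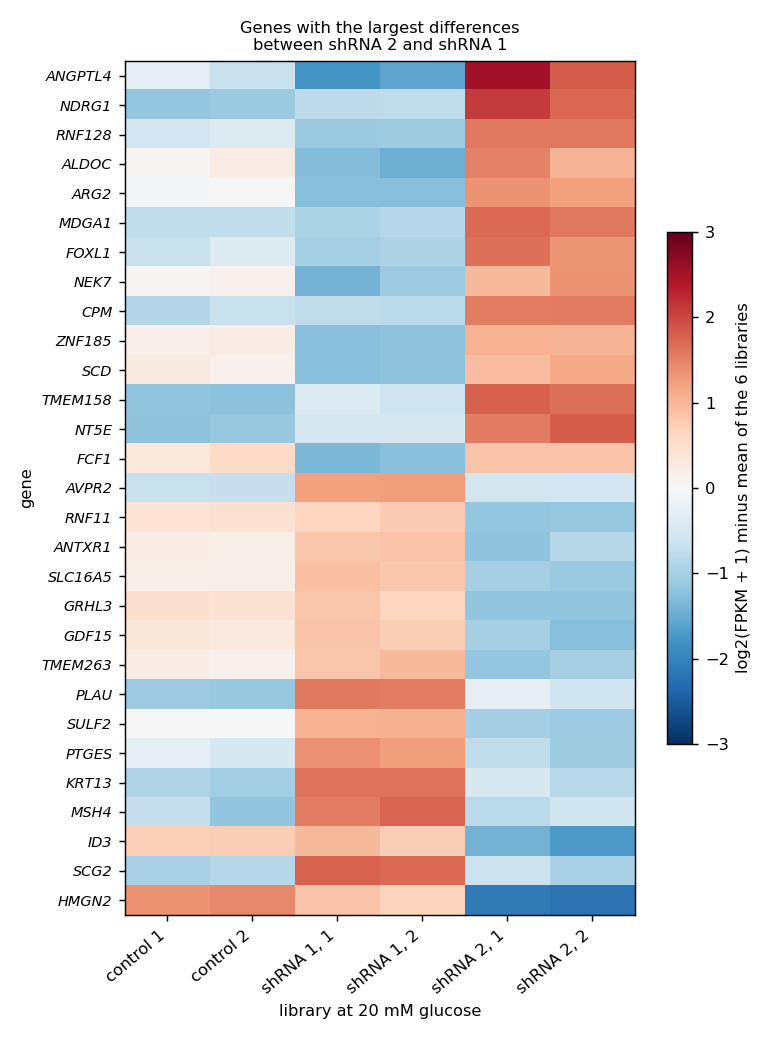
The 29 protein-coding genes shown are among those with the largest differences between the MAPKAPK2 shRNAs (rows, from the largest rise to the largest fall with shRNA 2) in the 6 libraries at 20 mM glucose (columns); colour is log2(FPKM + 1) minus the gene's mean over the 6 libraries, red above and blue below. Replicates of a line resemble each other, and in some rows the controls resemble shRNA 1 (NDRG1, CPM), in others shRNA 2 (SCG2, MSH4, KRT13).

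Genes of the hypoxia response had the highest median difference of the 34 lists with at least 5 tested members. Hypoxia-inducible factors (HIF) are transcription factors that are stabilised when oxygen-dependent prolyl hydroxylases are inactive, and they raise glycolytic enzymes, the hydroxylases themselves and other target genes. Of 28 tested hypoxia targets outside glycolysis, 22 were higher with shRNA 2, none lower and 6 not called, beside 15.1% higher and 10.8% lower over all genes. The median difference was 1.05, and 21 were higher and none lower after rescaling to nuclear reads. With only the 4 shRNA libraries in the model 17 were called higher. Set against the controls, 19 of the 22 were called above control with shRNA 2, and with shRNA 1 3 were called below and 2 above. Here and below, up to 4 called members of a list were named by the smallest p, and 32 further genes were chosen after their values were seen.

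Members of this list and of the glycolysis list below that were called higher were taken in order of their rise with shRNA 2. Some that the order takes in are not shown. Promoters of 4 of them are given because the members moved together and HIF is known to bind a short core sequence. They are the 250 bases before the start that RefSeq gives on GRCh38.p14, 5′ to 3′ on the gene's strand. The GENCODE spans of ANGPTL4, ALDOC and PFKFB4 contain these windows and that of BNIP3 overlaps its window, so bases shown can lie after the start of other transcripts. Capitals mark matches to ACGTG or GCGTG on either strand (CACGT and CACGC on the other strand), and matches on both strands overlap where CACGTG occurs.
ANGPTL4 (chr19:8363905-8364154, strand +): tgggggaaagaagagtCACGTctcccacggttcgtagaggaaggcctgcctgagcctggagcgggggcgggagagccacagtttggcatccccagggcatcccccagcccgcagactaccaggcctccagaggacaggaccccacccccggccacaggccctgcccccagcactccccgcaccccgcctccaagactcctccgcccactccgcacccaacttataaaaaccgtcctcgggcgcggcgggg
ALDOC (chr17:28576896-28577145, strand -): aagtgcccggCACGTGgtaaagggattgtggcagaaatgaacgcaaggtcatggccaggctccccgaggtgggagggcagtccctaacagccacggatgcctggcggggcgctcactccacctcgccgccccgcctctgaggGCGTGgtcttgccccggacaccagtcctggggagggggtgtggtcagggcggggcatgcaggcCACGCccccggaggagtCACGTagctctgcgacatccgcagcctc
BNIP3 (chr10:131981924-131982173, strand -): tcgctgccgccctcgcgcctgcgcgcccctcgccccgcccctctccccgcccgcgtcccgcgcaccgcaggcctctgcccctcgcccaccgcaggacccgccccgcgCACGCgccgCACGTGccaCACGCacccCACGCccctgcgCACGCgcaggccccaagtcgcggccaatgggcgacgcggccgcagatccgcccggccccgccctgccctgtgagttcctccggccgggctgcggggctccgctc
PFKFB4 (chr3:48556804-48557053, strand -): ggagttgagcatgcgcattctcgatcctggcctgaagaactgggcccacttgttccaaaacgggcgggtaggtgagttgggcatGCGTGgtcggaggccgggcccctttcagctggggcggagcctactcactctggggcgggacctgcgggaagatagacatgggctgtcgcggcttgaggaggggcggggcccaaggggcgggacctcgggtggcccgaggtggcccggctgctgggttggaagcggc
The ANGPTL4 window holds 1 match, with its first base 234 bases before the start, and that of PFKFB4 holds 1, at 166 bases. ALDOC has 5 and BNIP3 6, the latter all between 143 and 104 bases before the start. Of the 33 members of the hypoxia and glycolysis lists that were higher with shRNA 2 and have an entry in the promoter table, 23 (69.7%) hold a match, against 32 of all 46 tested members with an entry (69.6%) and 43.1% of all 27305 promoters. The called members thus held a match as often as the tested members. A match is only a description of these letters.

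BNIP3, a mitophagy receptor of the outer mitochondrial membrane, was at 6.23 and 5.99 FPKM with shRNA 1, 33.2 and 26.6 with shRNA 2 and 6.68 and 7.76 in the controls. Only the shRNA 2 libraries stood apart (difference 2.11, SE 0.13, adjusted p = 0.000297). The table holds 39 genes named as its pseudogene copies, which could share its reads. Its relative BNIP3L (1.45, adjusted p = 0.000505), the bifunctional fructose-2,6-bisphosphate enzyme PFKFB4 (1.81, adjusted p = 0.000682), the lysyl oxidase LOXL2 (1.77, adjusted p = 0.000590) and the collagen-modifying enzymes PLOD2 (1.65, adjusted p = 0.000359) and P4HA1 (1.46, adjusted p = 0.000835) followed. Genes that feed back on HIF were among the members: the prolyl hydroxylase EGLN1 was at 13.2 and 14.7 FPKM with shRNA 1, 25.9 and 27.6 with shRNA 2 and 11.3 and 11.1 in the controls (0.90, adjusted p = 0.00240). The histone demethylase KDM3A, itself a HIF target, was at 4.70 and 4.51 FPKM with shRNA 1, 10.01 and 11.6 with shRNA 2 and 4.10 and 4.26 in the controls (1.07, adjusted p = 0.00182). In these genes the shRNA 2 libraries stood above all 4 others. BHLHE40, a circadian and hypoxia-induced repressor, had another pattern, at 9.79 and 7.81 FPKM with shRNA 1, 33.2 and 29.2 with shRNA 2 and 22.8 and 23.7 in the controls (1.72, adjusted p = 0.000611), with shRNA 1 lowest. VEGFA, the angiogenic growth factor, differed less, at 3.29 and 3.68 FPKM with shRNA 1, 7.46 and 5.64 with shRNA 2 and 4.37 and 3.98 in the controls (0.74, adjusted p = 0.00939). Its call was kept in 19 of 21 alternatives. It was lost without shRNA 1 replicate 1 (difference 0.68) and with only the 4 shRNA libraries in the model (adjusted p = 0.0508). MIR210HG, the host transcript of the hypoxia-induced microRNA miR-210, was at 0.366 and 0.479 FPKM with shRNA 1, 8.03 and 4.36 with shRNA 2 and 0.567 and 0.920 in the controls (2.29, adjusted p = 0.00295), from 16 and 17 reads with shRNA 1 and 353 and 163 with shRNA 2. MIR210HG was included only through the shRNA 2 libraries.

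Of 12 tested HIF factors and partners 1 was higher and 2 were lower, shares near those over all genes, with a median of 0.08 that became −0.07 after rescaling to nuclear reads. EPAS1, HIF-2 alpha, was the member that was higher, at 5.78 and 6.16 FPKM with shRNA 1, 10.6 and 11.9 with shRNA 2 and 2.36 and 2.46 in the controls (difference 0.82, SE 0.11, adjusted p = 0.00281). Both lines were above the controls, shRNA 2 more so. The HIF partner ARNT2 (−0.83, adjusted p = 0.0134) and the ubiquitin ligase subunit VHL (−0.31, adjusted p = 0.0390) were lower. ARNT2 was included only through the shRNA 1 libraries, and was at 0.287 and 0.337 FPKM with shRNA 2. The call of ARNT2 was lost without shRNA 1 replicate 1 or 2 (differences −0.806 and −0.851). It was also lost with only the 4 shRNA libraries in the model (adjusted p = 0.0643). The call of VHL was kept in 11 of 21 alternatives and lost without any library other than shRNA 2 replicate 1.

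Of 25 genes of glycolysis and lactate handling, 17 were higher with shRNA 2 and none lower, with a median of 0.75; rescaled to nuclear reads, 15 were higher and 1 lower. Of the 17, 14 were called above control with shRNA 2 and 7 below control with shRNA 1. LDHA, which reduces pyruvate to lactate, was at 114 and 101 FPKM with shRNA 1, 335 and 294 with shRNA 2 and 114 and 131 in the controls (difference 1.54, SE 0.13, adjusted p = 0.000637). HK2, the inducible hexokinase, was at 8.62 and 9.45 FPKM with shRNA 1, 22.4 and 21.3 with shRNA 2 and 8.51 and 7.54 in the controls (difference 1.19, SE 0.095, adjusted p = 0.000589). PFKP, platelet phosphofructokinase, was at 45.5 and 42.8 FPKM with shRNA 1, 139.5 and 109 with shRNA 2 and 78.3 and 74.5 in the controls (difference 1.46, SE 0.14, adjusted p = 0.000861). For LDHA and HK2 the shRNA 1 libraries overlapped or nearly met the controls, whereas PFKP was low with shRNA 1 and high with shRNA 2. ALDOC, an aldolase isoform, was at 2.43 and 2.08 FPKM with shRNA 1, 22.8 and 16.1 with shRNA 2 and 7.66 and 8.83 in the controls (2.63, adjusted p = 0.000307), and ENO2, an enolase isoform, at 6.22 and 6.55 FPKM with shRNA 1, 26.02 and 20.6 with shRNA 2 and 9.55 and 11.1 in the controls (1.71, adjusted p = 0.000505). Their controls lay between the lines. PGK1 (1.15, adjusted p = 0.00173), PGAM1 (1.13, adjusted p = 0.00142), GPI (0.82, adjusted p = 0.00396) and PKM (0.75, adjusted p = 0.00361) were higher as well. The table names 13 pseudogene copies of PGAM1. SLC2A3, a glucose transporter, was at 0.155 and 0.191 FPKM with shRNA 1, 1.41 and 1.58 with shRNA 2 and 11.4 and 13.4 in the controls (1.09, adjusted p = 0.00147), so that it was far below the controls in both lines and lowest with shRNA 1. SLC2A3 was included only through the shRNA 2 libraries, and its shRNA 1 values rest on 18 and 18 reads.

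Genes of cholesterol synthesis and uptake were higher with shRNA 2 in 15 of 27 tested members and lower in none, with a median of 0.55. The list holds 20 enzymes and 7 regulators, many of them targets of the sterol-sensing factor SREBP2. The counts were 14 and 1 after rescaling to nuclear reads. Of the 15, 14 were called below control with shRNA 1 and 3 above control with shRNA 2. INSIG1, which retains the SREBP complex in the endoplasmic reticulum, was at 8.54 and 8.22 FPKM with shRNA 1, 32.8 and 34.9 with shRNA 2 and 23.1 and 21.8 in the controls (difference 1.89, SE 0.093, adjusted p = 0.000259). STARD4, a sterol transfer protein, was at 2.62 and 3.68 FPKM with shRNA 1, 12.6 and 16.9 with shRNA 2 and 10.5 and 11.3 in the controls (1.92, adjusted p = 0.000937). In both genes the shRNA 1 libraries were below and the shRNA 2 libraries above the controls. IDI1 (1.18, adjusted p = 0.00206) and MSMO1 (0.87, adjusted p = 0.00186) were also higher with shRNA 2.

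Fatty acid and glycerolipid synthesis gave 10 higher and none lower of 16 members, with a median of 0.52, and 6 higher after rescaling to nuclear reads. SCD, which introduces the double bond of oleate, was at 58.0 and 60.4 FPKM with shRNA 1, 269 and 309 with shRNA 2 and 171 and 155 in the controls (difference 2.26, SE 0.13, adjusted p = 0.000297). The shRNA 1 libraries were below and the shRNA 2 libraries above the controls. FADS1, a fatty acid desaturase, was at 2.17 and 1.91 FPKM with shRNA 1, 7.17 and 7.38 with shRNA 2 and 10.03 and 9.38 in the controls (1.45, adjusted p = 0.000595), and ACSL3, an acyl-CoA synthetase, at 7.52 and 7.60 FPKM with shRNA 1, 19.3 and 24.5 with shRNA 2 and 17.8 and 17.8 in the controls (1.41, adjusted p = 0.000886). Both were lowest with shRNA 1. LPIN1, a phosphatidate phosphatase, was at 1.23 and 1.26 FPKM with shRNA 1, 5.12 and 5.94 with shRNA 2 and 2.21 and 2.52 in the controls (1.54, adjusted p = 0.000590).

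**Figure D4:**
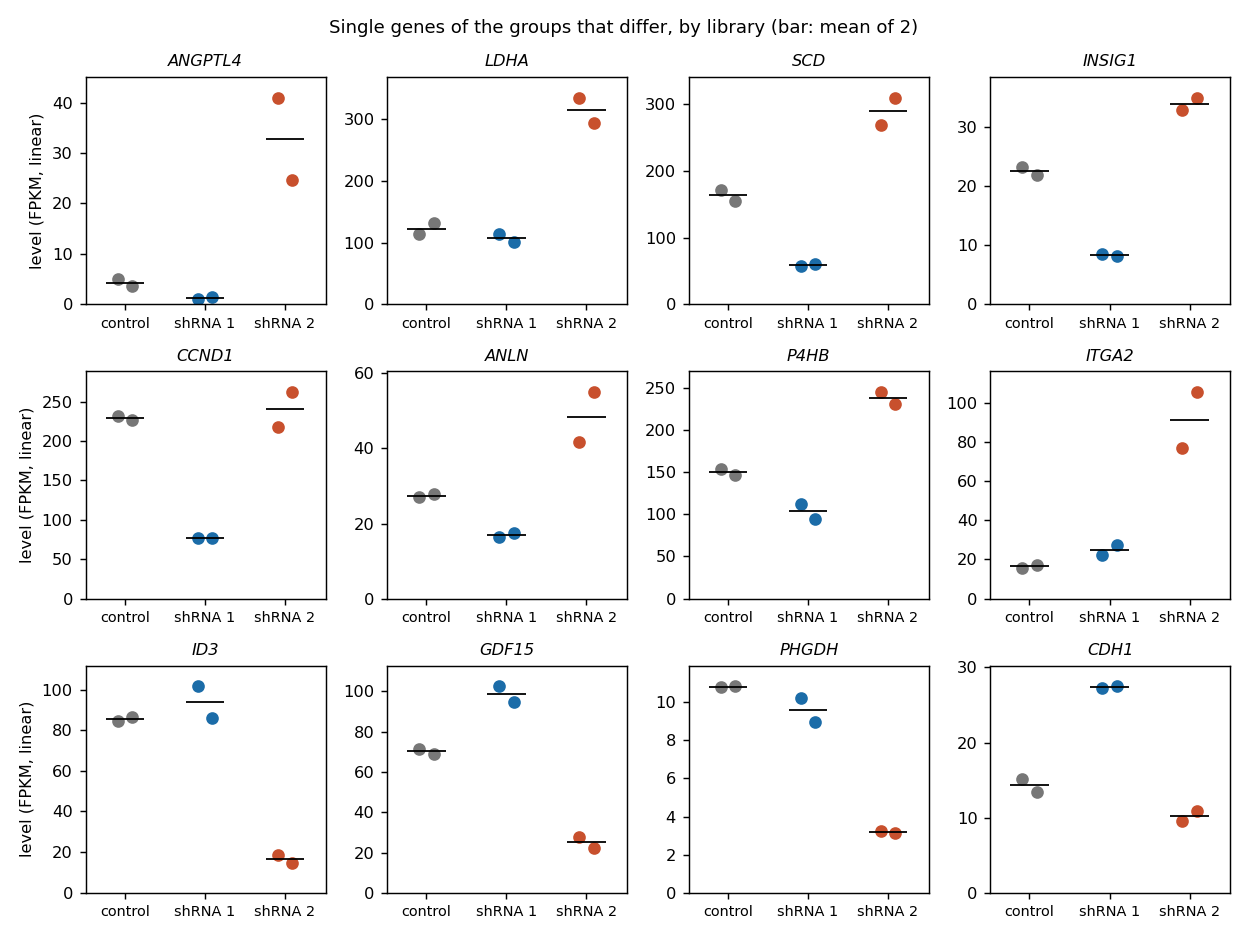
Level (FPKM, linear axes from 0) of 12 genes, 1 or 2 from each of several groups, in each library at 20 mM glucose; points are libraries and bars the mean of 2. LDHA and ITGA2 are high with shRNA 2 alone, CCND1 is low with shRNA 1 alone (76.5 to 76.6 FPKM), ID3 and PHGDH are low with shRNA 2 alone, and CDH1 is highest with shRNA 1.

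Among genes of the G1 phase and of mitosis, more were higher than lower with shRNA 2. Of 14 tested G1 cyclins, kinases and inhibitors, 8 were higher and 1 lower (7 and 1 rescaled to nuclear reads; median 0.73). CCND1, cyclin D1, was at 76.6 and 76.5 FPKM with shRNA 1, 218 and 262 with shRNA 2 and 232 and 226 in the controls (difference 1.63, SE 0.12, adjusted p = 0.000463). The shRNA 1 line alone was low, and shRNA 2 spanned the controls. CDK2, the kinase of S phase entry, was also lowest with shRNA 1, at 10.2 and 8.16 FPKM with shRNA 1, 22.01 and 21.4 with shRNA 2 and 22.9 and 23.6 in the controls (1.16, adjusted p = 0.00104), with shRNA 2 just under the controls. The inhibitor CDKN1C, p57, was at 4.14 and 3.38 FPKM with shRNA 1, 21.8 and 14.7 with shRNA 2 and 3.60 and 3.94 in the controls (2.0, adjusted p = 0.000871), and CDKN2B, p15, at 2.13 and 2.29 FPKM with shRNA 1, 6.82 and 6.25 with shRNA 2 and 2.24 and 2.05 in the controls (1.23, adjusted p = 0.00127). Both inhibitors were near the controls with shRNA 1 and high with shRNA 2, so genes that promote and genes that restrain the cycle were higher in the same line. CCNE1, cyclin E1, was higher as well (0.87, adjusted p = 0.00161).

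Of 31 mitotic genes 20 were higher and 1 lower (16 and 1 rescaled; median 0.55), and 16 of the 20 were called below control with shRNA 1 against 4 above control with shRNA 2. CCNA2, cyclin A2, was at 25.6 and 25.1 FPKM with shRNA 1, 48.8 and 55.2 with shRNA 2 and 45.3 and 43.5 in the controls (difference 1.01, SE 0.099, adjusted p = 0.00104). ANLN, which organises the cytokinetic ring, was at 16.4 and 17.6 FPKM with shRNA 1, 41.7 and 55.0 with shRNA 2 and 27.0 and 27.8 in the controls (difference 1.44, SE 0.15, adjusted p = 0.00136). AURKA, a kinase of the spindle poles, was at 16.4 and 15.8 FPKM with shRNA 1, 32.7 and 32.7 with shRNA 2 and 21.6 and 24.7 in the controls (0.98, adjusted p = 0.00120), and UBE2C, a ubiquitin-conjugating enzyme of the anaphase-promoting complex, at 63.1 and 50.9 FPKM with shRNA 1, 143 and 123 with shRNA 2 and 91.8 and 96.3 in the controls (1.22, adjusted p = 0.00134). All 4 genes were lowest with shRNA 1. BIRC5, survivin, was the member that was lower with shRNA 2 (−0.47, adjusted p = 0.0248), a call kept in 16 of 21 alternatives. The call was lost without shRNA 1 replicate 1 (difference −0.411), shRNA 1 replicate 2 (−0.539) or shRNA 2 replicate 2 (−0.358). It was also lost with only the 4 shRNA libraries in the model (adjusted p = 0.085) and without a filter on low values (adjusted p = 0.0563). The 44 DNA replication genes gave 14 higher and 3 lower, but 5 higher and 7 lower after rescaling to nuclear reads, with medians of 0.21 and 0.05, so no direction is given for this list. Of the 14, 12 were called below control with shRNA 1. TYMS, thymidylate synthase, was at 6.26 and 6.65 FPKM with shRNA 1, 20.6 and 17.0 with shRNA 2 and 28.0 and 26.3 in the controls (1.40, adjusted p = 0.000505), although 46.6% of its exon bases overlap ENOSF1. E2F7, an atypical E2F repressor, was at 3.44 and 3.53 FPKM with shRNA 1, 8.77 and 12.3 with shRNA 2 and 9.09 and 7.88 in the controls (1.35, adjusted p = 0.00281). DNMT1, the maintenance DNA methyltransferase, was at 24.6 and 23.9 FPKM with shRNA 1, 14.5 and 14.1 with shRNA 2 and 41.9 and 39.4 in the controls (difference −0.72, SE 0.08, adjusted p = 0.00160), lower in both lines than in the controls and lowest with shRNA 2. Its partner UHRF1 was at 16.7 and 15.1 FPKM with shRNA 1, 28.4 and 26.7 with shRNA 2 and 56.1 and 49.5 in the controls (0.76, adjusted p = 0.00378), lowest with shRNA 1.

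Genes of ATF4 and the integrated stress response were lower with shRNA 2 in 12 of 39 members and higher in 4, with a median of −0.15. Of the 39, 10 are regulators (1 lower, 2 higher) and the others mainly ATF4 targets, which rise in this response. Rescaled to nuclear reads, 17 were lower and 2 higher, and with only the 4 shRNA libraries in the model 4 and 1. Of the 12, 10 were called below control with shRNA 2. GDF15, described above, belongs to this list. PHGDH, the first enzyme of serine synthesis, was at 10.2 and 8.96 FPKM with shRNA 1, 3.24 and 3.14 with shRNA 2 and 10.8 and 10.8 in the controls (difference −1.34, SE 0.092, adjusted p = 0.000396). CHAC1, a glutathione-degrading enzyme, was at 5.58 and 6.90 FPKM with shRNA 1, 2.26 and 2.02 with shRNA 2 and 9.56 and 7.37 in the controls (−1.2, adjusted p = 0.00271). Both were low with shRNA 2 only, or lowest there. PSAT1, the next enzyme of serine synthesis, differed less (−0.56, adjusted p = 0.00566). AARS, a tRNA synthetase, went the other way, at 28.6 and 27.7 FPKM with shRNA 1, 44.2 and 41.6 with shRNA 2 and 51.8 and 51.2 in the controls (0.59, adjusted p = 0.00349). Of 8 genes around the glucose-sensing factor MondoA, 3 were lower and none higher: ARRDC4, an alpha-arrestin, was at 6.03 and 6.10 FPKM with shRNA 1, 1.40 and 1.77 with shRNA 2 and 1.82 and 1.63 in the controls (−1.45, adjusted p = 0.000964), with shRNA 1 alone above the controls, and KLF10 had the same order (62.3 and 56.0 FPKM with shRNA 1, 26.5 and 34.3 with shRNA 2 and 29.6 and 30.6 in the controls).

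Of 23 chaperones and other genes of the endoplasmic reticulum and its stress response, 11 were higher with shRNA 2, 1 lower and 11 not called (9 higher and 2 lower rescaled; median 0.41). P4HB, protein disulfide isomerase, was at 112 and 94.8 FPKM with shRNA 1, 245 and 230.2 with shRNA 2 and 153 and 147 in the controls (difference 1.2, SE 0.11, adjusted p = 0.000869). PDIA4, a related isomerase, was at 64.4 and 60.6 FPKM with shRNA 1, 129.5 and 131 with shRNA 2 and 89.1 and 90.7 in the controls (difference 1.05, SE 0.092, adjusted p = 0.000738). HSPA5, the main chaperone BiP, was at 182 and 166 FPKM with shRNA 1, 302 and 317 with shRNA 2 and 222 and 229 in the controls (0.83, adjusted p = 0.00443). In all 3 the shRNA 1 libraries lay under and the shRNA 2 libraries over the controls. DNAJB11 was also higher (1.14, adjusted p = 0.000839), with 23.2% of its exon bases overlapping AC068631.1. The member that was lower was DNAJB9, at 10.6 and 10.3 FPKM with shRNA 1, 5.16 and 5.80 with shRNA 2 and 5.02 and 5.76 in the controls (−0.82, adjusted p = 0.00250), where shRNA 1 alone was high. Of 19 heat shock genes 10 were higher and 1 lower, 6 and 1 after rescaling, and 2 and 0 with only the 4 shRNA libraries in the model. DNAJB4 (1.08, adjusted p = 0.000925) and the co-chaperone BAG3 (0.56, adjusted p = 0.00533) were among those higher.

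**Figure D5:**
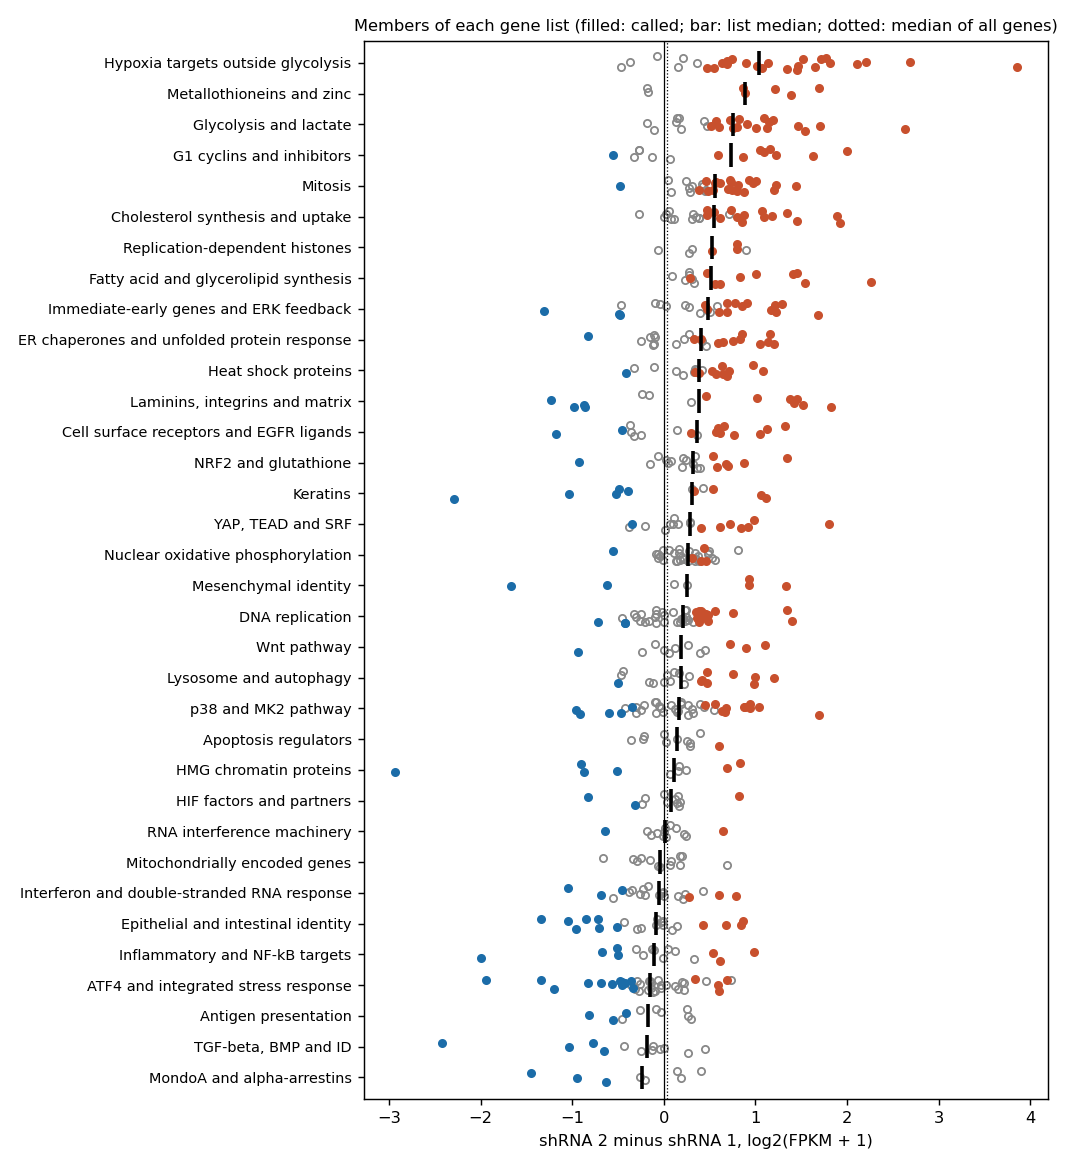
Difference between the MAPKAPK2 shRNAs (shRNA 2 minus shRNA 1, log2(FPKM + 1)) of each tested member (points) of the 34 gene lists with at least 5 tested members, ordered by the list median (black bar); filled points were called (orange higher and blue lower with shRNA 2) and the dotted line is the median of all 14653 genes. Hypoxia targets are at the top with a median of 1.05 and genes around MondoA at the bottom with −0.23.

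Growth factor signalling genes differed in both directions. ERK signalling induces a set of immediate-early transcription factors and its own inhibitors of the DUSP and SPRY families. Of 26 tested genes of this kind, 13 were higher with shRNA 2 and 3 lower (11 and 5 after rescaling; median 0.49), and 8 of the 13 were called below control with shRNA 1 and 6 above control with shRNA 2. SPRY4, an inhibitor of receptor tyrosine kinase signalling, was at 15.6 and 15.5 FPKM with shRNA 1, 48.9 and 54.8 with shRNA 2 and 24.5 and 22.8 in the controls (difference 1.68, SE 0.092, adjusted p = 0.000278). DUSP5, a nuclear ERK phosphatase, was at 68.2 and 60.6 FPKM with shRNA 1, 145 and 146 with shRNA 2 and 59.4 and 59.6 in the controls (difference 1.17, SE 0.095, adjusted p = 0.000591). EGR1, an immediate-early factor, was at 16.4 and 13.8 FPKM with shRNA 1, 36.1 and 36.1 with shRNA 2 and 46.3 and 44.2 in the controls (difference 1.21, SE 0.1, adjusted p = 0.000670). SPRY4 and DUSP5 were above the controls with shRNA 2, whereas EGR1 was low with shRNA 1 and nearer the controls with shRNA 2. ETV5, an ETS factor downstream of ERK, went the other way, at 14.9 and 15.5 FPKM with shRNA 1, 4.90 and 6.18 with shRNA 2 and 6.74 and 7.50 in the controls (−1.31, adjusted p = 0.00162).

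Of 17 receptors and ligands of the EGFR system and related receptors, 9 were higher and 2 lower (7 and 3 rescaled). AREG, the EGFR ligand amphiregulin, was at 71.5 and 71.1 FPKM with shRNA 1, 186 and 174 with shRNA 2 and 425 and 451 in the controls (difference 1.32, SE 0.092, adjusted p = 0.000418), low in both lines and lowest with shRNA 1. HBEGF, another EGFR ligand, was at 2.73 and 2.73 FPKM with shRNA 1, 6.51 and 7.84 with shRNA 2 and 2.89 and 3.26 in the controls (1.13, adjusted p = 0.00132), and INSR, the insulin receptor, at 2.32 and 2.33 FPKM with shRNA 1, 6.10 and 5.69 with shRNA 2 and 4.51 and 4.12 in the controls (1.05, adjusted p = 0.000869). FGFBP1, a carrier of fibroblast growth factors, was lower with shRNA 2 (−1.18, adjusted p = 0.00199). Of 17 genes of the YAP, TEAD and SRF group, 7 were higher and 1 lower (6 and 2 rescaled), and all 7 were called below control with shRNA 1. F3, tissue factor, was at 18.8 and 20.7 FPKM with shRNA 1, 66.6 and 75.9 with shRNA 2 and 38.3 and 35.8 in the controls (difference 1.80, SE 0.12, adjusted p = 0.000328), with the controls between the lines. SRF (0.99, adjusted p = 0.00297), AXL (0.92, adjusted p = 0.00148) and LATS2 (0.84, adjusted p = 0.00544) were higher too. In the Wnt list of 12 genes, DKK1, a secreted Wnt inhibitor, was at 40.8 and 39.2 FPKM with shRNA 1, 86.6 and 87.0 with shRNA 2 and 271 and 283 in the controls (1.1, adjusted p = 0.000715), far below the controls in both lines. ZNRF3, a ubiquitin ligase that removes Wnt receptors, was lower with shRNA 2, at 8.35 and 8.15 FPKM with shRNA 1, 3.83 and 3.83 with shRNA 2 and 6.10 and 6.16 in the controls (−0.94, adjusted p = 0.00194).

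Adhesion and matrix genes split by member. Of 14 laminins, integrins and matrix genes 7 were higher with shRNA 2 and 4 lower (6 and 4 rescaled). All 7 were called above control with shRNA 2, and 5 of them with shRNA 1 too; the 4 lower ones were called above control with shRNA 1. ITGA2, the collagen-binding integrin alpha 2, was at 22.3 and 27.2 FPKM with shRNA 1, 77.0 and 106 with shRNA 2 and 15.8 and 17.1 in the controls (difference 1.83, SE 0.17, adjusted p = 0.000904). ITGA6, a laminin-binding integrin, was at 24.7 and 29.9 FPKM with shRNA 1, 69.8 and 90.9 with shRNA 2 and 17.9 and 16.0 in the controls (1.52, adjusted p = 0.00176). HAS3, a hyaluronan synthase, was at 28.4 and 30.1 FPKM with shRNA 1, 83.9 and 79.2 with shRNA 2 and 11.0 and 9.12 in the controls (1.45, adjusted p = 0.000505). These were above the controls with shRNA 2 and less so, or not clearly, with shRNA 1. CD44, the hyaluronan receptor, was at 91.9 and 94.2 FPKM with shRNA 1, 43.9 and 49.8 with shRNA 2 and 37.2 and 37.2 in the controls (difference −0.98, SE 0.1, adjusted p = 0.00138), and ITGA3 at 63.4 and 58.6 FPKM with shRNA 1, 36.0 and 30.7 with shRNA 2 and 33.7 and 32.9 in the controls (−0.85, adjusted p = 0.00219). For both, shRNA 1 alone was high, so the receptor CD44 and the synthase HAS3 differed in opposite directions.

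Epithelial genes were lower with shRNA 2 in 7 of 21 members and higher in 4 (9 and 2 rescaled; median −0.08). CDH1, E-cadherin of adherens junctions, was at 27.2 and 27.5 FPKM with shRNA 1, 9.62 and 10.8 with shRNA 2 and 15.1 and 13.5 in the controls (difference −1.34, SE 0.11, adjusted p = 0.000572). It was above the controls with shRNA 1 and below them with shRNA 2. EPCAM, an epithelial adhesion molecule, was at 139 and 131 FPKM with shRNA 1, 70.0 and 68.2 with shRNA 2 and 108 and 116 in the controls (difference −0.95, SE 0.086, adjusted p = 0.000809). The transcription factor KLF5 was higher with shRNA 2 (0.84, adjusted p = 0.00420). Of 7 mesenchymal genes 3 were higher and 2 lower. ITGA5, the fibronectin receptor subunit, was at 15.7 and 14.6 FPKM with shRNA 1, 33.0 and 26.8 with shRNA 2 and 11.6 and 11.9 in the controls (0.93, adjusted p = 0.00216), while S100A4, a calcium-binding protein, was at 314 and 284 FPKM with shRNA 1, 118 and 73.5 with shRNA 2 and 73.5 and 90.0 in the controls (−1.67, adjusted p = 0.00316), high with shRNA 1 alone. SNAI2 was higher at low levels, with 0.438 and 0.463 FPKM with shRNA 1 and 2.38 and 2.91 with shRNA 2 (1.33, adjusted p = 0.00409). ZEB1 was higher too, with 0.817 and 0.741 FPKM against 1.87 and 2.97 (0.925, adjusted p = 0.0245), a call kept in 14 of 20 alternatives. SNAI2 and ZEB1 were included only through the shRNA 2 libraries. Of 11 keratins 4 were higher and 5 lower (2 and 5 rescaled). KRT7 was at 13.6 and 10.9 FPKM with shRNA 1, 6.01 and 4.90 with shRNA 2 and 40.4 and 41.2 in the controls (−1.03, adjusted p = 0.00245), below the controls in both lines and lowest with shRNA 2. Fewer cells of a type and less RNA per cell cannot be told apart in these bulk libraries.

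Chromatin and BMP-related genes were among the falls. Of 10 HMG chromatin protein genes 4 were lower and 2 higher under both scalings. HMGB1, an abundant DNA-bending protein, was at 50 and 50.8 FPKM with shRNA 1, 27.3 and 26.8 with shRNA 2 and 62.2 and 67.8 in the controls (difference −0.87, SE 0.085, adjusted p = 0.00101). The table names 48 pseudogene copies of HMGB1. HMGN4 was at 59.2 and 50.4 FPKM with shRNA 1, 27.6 and 29.9 with shRNA 2 and 37.3 and 40.8 in the controls (−0.90, adjusted p = 0.00219), and HMGN2 is described above. HMGB2 was higher with shRNA 2, at 68.6 and 67.2 FPKM with shRNA 1, 122 and 99.7 with shRNA 2 and 142 and 154 in the controls (0.69, adjusted p = 0.00723), and its adjusted p was 0.0513 without shRNA 1 replicate 2. Of 12 genes of the TGF-beta, BMP and ID group 4 were lower and none higher (6 lower rescaled). BMP4, a secreted ligand that induces ID genes, was at 57.1 and 52.7 FPKM with shRNA 1, 27.2 and 25.5 with shRNA 2 and 101 and 98.1 in the controls (difference −1.03, SE 0.095, adjusted p = 0.000856). SMAD3, a signal transducer of TGF-beta receptors, was at 18.4 and 19.4 FPKM with shRNA 1, 10.4 and 10.9 with shRNA 2 and 17.3 and 16.1 in the controls (difference −0.77, SE 0.086, adjusted p = 0.00162). BMP4 was below the controls in both lines and SMAD3 only with shRNA 2.

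Of 7 tested genes of metallothioneins, cysteine-rich proteins that bind zinc, and of zinc handling, 5 were higher with shRNA 2 under both scalings: MT1E, MT1F, MT1X, MT2A and the factor MTF1. MT1E was at 193 and 164 FPKM with shRNA 1, 539.7 and 404 with shRNA 2 and 72.9 and 81.4 in the controls (difference 1.39, SE 0.16, adjusted p = 0.00190). MTF1, the zinc-sensing factor that induces them, was at 3.95 and 3.78 FPKM with shRNA 1, 7.03 and 8.79 with shRNA 2 and 7.09 and 6.04 in the controls (0.87, adjusted p = 0.00457). MT1E was above the controls in both lines, MTF1 was low with shRNA 1. The call was kept in 15 of 20 alternatives for MT1F, 19 of 21 for MT1X and 18 of 21 for MT2A. Without shRNA 1 replicate 2 the calls of MT1F, MT1X and MT2A were lost (differences 0.734, 1.53 and 0.978). Metallothionein genes are near-identical, so reads could be split between them. Of 19 NRF2 and glutathione genes 6 were higher and 1 lower; GCLC, the limiting enzyme of glutathione synthesis, was at 8.05 and 7.59 FPKM with shRNA 1, 14.8 and 15.6 with shRNA 2 and 8.93 and 8.38 in the controls (0.88, adjusted p = 0.00176) and NQO1, a quinone reductase, at 20.4 and 20.5 FPKM with shRNA 1, 34.6 and 31.9 with shRNA 2 and 45.4 and 49.4 in the controls (0.68, adjusted p = 0.00279). The lower member of the NRF2 list was HMOX1, at 7.53 and 6.58 FPKM with shRNA 1 and 3.86 and 2.66 with shRNA 2. It was at 11.8 and 12.6 in the controls (−0.93, adjusted p = 0.00764), and the call was kept in 20 of 21 alternatives. Of 20 lysosome and autophagy genes 8 were higher and 1 lower (5 and 3 rescaled).

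In the remaining lists no list had more than 4 calls in either direction with the deposited scaling, and rescaled counts can exceed this. The lists differ in size, so that limit does not place their shares near the 25.9% called over all genes. Of 15 inflammatory and NF-kB targets, which include AU-rich mRNAs, 3 were higher and 4 lower (2 and 5 rescaled), with RELB higher (0.99, adjusted p = 0.00544) and PLAU lower. Of 21 genes of the interferon and double-stranded RNA response, which hairpin RNAs can trigger, 3 were higher and 3 lower, but 2 and 7 after rescaling to nuclear reads. IRF7 was higher, at 3.03 and 3.11 FPKM with shRNA 1, 6.59 and 5.53 with shRNA 2 and 10.7 and 9.26 in the controls (0.79, adjusted p = 0.00403). BST2 was lower, at 1.76 and 1.52 FPKM with shRNA 1, 0.330 and 0.222 with shRNA 2 and 2.14 and 1.96 in the controls (−1.05, adjusted p = 0.00408). BST2 was included only through the shRNA 1 libraries, and its shRNA 2 values rest on 7 and 4 reads. The other lower members were DDX58 (−0.68, adjusted p = 0.00924) and STAT2 (−0.46, adjusted p = 0.0117), each kept in 19 of 21 alternatives. Of 10 antigen presentation genes 3 were lower, with TAP1, a peptide transporter, at 12.0 and 12.9 FPKM with shRNA 1, 7.59 and 5.82 with shRNA 2 and 8.21 and 8.30 in the controls (−0.81, adjusted p = 0.00488). Nuclear genes of oxidative phosphorylation gave 4 higher and 1 lower of 35, and none when only the 4 shRNA libraries were fitted. None of the 13 mitochondrially encoded genes was called. Of 11 apoptosis regulators 1 was called, MCL1, an anti-apoptotic BCL2 relative, at 57.9 and 60.7 FPKM with shRNA 1, 91.7 and 89.2 with shRNA 2 and 58.5 and 58.5 in the controls (difference 0.60, SE 0.078, adjusted p = 0.00287). Among 7 replication-dependent histone genes 3 were higher and none lower (1 rescaled). With only the 4 shRNA libraries in the model, where 12.4% of all genes were called, DNA replication kept 3 higher and 1 lower. Keratins, NF-kB targets and the interferon response each had 1 higher and 2 lower in that model. Lysosome genes and the YAP group each had 4 higher and none lower. Antigen presentation had 1 lower.

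Among called protein-coding genes with at least 5 FPKM in the higher line and no overlap, the controls at 20 mM lay between the libraries of both shRNAs for 620 genes higher with shRNA 2 and for 343 lower. All of these genes were first picked for a gap between the lines. How many were picked is not given here, so the counts are not shares. By the smaller of the distances of both lines from control, the leading genes were ARG2, ANGPTL4 and ALDOC among those higher and SULF2, TMEM173 and TMEM263 among those lower. ARG2 was included only through the shRNA 2 libraries and SULF2 only through those of shRNA 1. SULF2, which removes sulfate groups from extracellular heparan sulfate, was at 5.39 and 5.47 FPKM with shRNA 1, 0.523 and 0.467 with shRNA 2 and 2.11 and 2.16 in the controls (difference −2.10, SE 0.12, adjusted p = 0.000297). TMEM173, the gene of the DNA-sensing adaptor STING, was at 6.43 and 7.22 FPKM with shRNA 1, 1.88 and 1.48 with shRNA 2 and 3.46 and 3.92 in the controls (difference −1.55, SE 0.14, adjusted p = 0.000793). TMEM263 was at 17.0 and 18.8 FPKM with shRNA 1, 3.52 and 4.09 with shRNA 2 and 10.7 and 9.99 in the controls (difference −1.98, SE 0.12, adjusted p = 0.000297). Each was highest with shRNA 1 and lowest with shRNA 2 without overlap among the 3 groups. For SULF2 the difference from control was 1.04 (adjusted p = 0.00268) with shRNA 1 and −1.07 (adjusted p = 0.00209) with shRNA 2, and for TMEM173 0.74 (adjusted p = 0.0124) with shRNA 1 and −0.81 (adjusted p = 0.00859) with shRNA 2. Both differences share the control libraries.

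The share of genes called rose with level, from 14.0% in the lowest of 5 equal bins by mean FPKM to 34.8% in the highest, and the median difference went from −0.08 to 0.17 over the same bins. In 5 equal bins by exon length, 13.9% of the shortest genes were called and 26.4% to 31.4% of the others. Protein-coding genes were called in 29.4% of 11139 cases with a median of 0.07, lincRNAs in 18.8% of 467 with a median of −0.15 and antisense genes in 14.0% of 737 with a median of −0.11. Over the autosomes and X the called share ran from 17.2% on chromosome 21 to 30.8% on chromosome 18, and medians from −0.03 on chromosome 16 to 0.09 on chromosome 14. On the mitochondrial chromosome 2 of 37 genes were called (5.41%). Among genes of other biotypes with the largest differences, MIR210HG is described above; the others by the same rule (MT-TS1, MIR8055, MIR3189, RNU7-59P and MIR3662) rest on at most 18 reads per shRNA library.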

How the data were processed

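Total RNA of HCT116 cells was read in 8 libraries, 2 per group, and groups were taken from the labels. The authors deposited FPKM per gene; the submitters' processing notes list DESeq2 1.20.0, HISAT2 2.0.5 and featureCounts 1.5.0-p3 without saying what each did. The strand setting and the definition of the library size are not given in the sources used here. All 58735 identifiers, positions and exon lengths match GENCODE 29 (GRCh38). FPKM times exon length gave whole reads for 100% of values within 0.001 of a read.

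The difference between both MAPKAPK2 shRNAs was tested with limma 3.58.1 in R 4.3.3 (lmFit, contrasts and eBayes with an intensity trend) on log2(FPKM + 1), with 4 group means over all 8 libraries, 4 residual degrees of freedom, a pseudocount of 1 and Benjamini-Hochberg adjustment over the 14653 genes. Adjusted p-values in the text are from this model unless another setting is named. On simulated reads for these genes (200 changed, dispersion 0.01) it called 17.5% of 1.5-fold and 82.5% of 2-fold rises, 70% of falls to 0.5-fold, and 8 unchanged genes. All groups were drawn with the same dispersion, and only genes above a minimum read count were changed. In the data the shRNA 2 replicates lay farther apart than those of shRNA 1 (median absolute log2 difference 0.23 against 0.127). The simulated rates therefore need not hold for the data.

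The members and the 38 gene lists (789 genes in the table, 644 tested) were chosen with earlier results of these data known, and lists were described by counts and medians without a test. Named by rule were up to 15 protein-coding and 3 other genes per direction with the largest difference (called, at least 5 FPKM in the higher line, no overlap), up to 4 called members per list by p, 6 genes with the controls between the lines, and MAPKAPK2, MAPKAPK3, MAPKAPK5, MAPK14, HSPB1, ZFP36 and HMGN2; some genes and a list that the rule takes in are not reported here. Reads of genes with overlapping exons cannot be assigned without the strand setting: 62 of 183 named genes overlap another, and 5 of them by over 20% of their exon bases (ARG2, DNAJB11, MAPKAPK5, PLAU and TYMS). Alternatives were 2 other pseudocounts, other filters, quantile normalization, array weights, limma voom on the recovered reads, protein-coding genes only, only the 4 shRNA libraries, a replicate block and each library left out; rescaling to reads in genes or in nuclear genes was added after seeing the data.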

Additional observations from a re-analysis of the deposited data

Results flagged for a closer look

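Among called protein-coding genes with at least 5 FPKM in the higher line and no overlap, every control library at 20 mM lay between the libraries of both lines in 620 genes higher and 343 lower with shRNA 2. These genes were first picked for a gap between the lines, and how many were picked is not given here, so the counts are not shares. The 3 per direction whose nearer line lay farthest from the controls are given. The values are shRNA 2 minus shRNA 1 on the log2(FPKM + 1) scale, and the limma adjusted p of each is in the report. Higher with shRNA 2 were ARG2 (2.56), ANGPTL4 (3.86) and ALDOC (2.63). Lower with shRNA 2 were SULF2 (−2.1), TMEM173 (−1.55) and TMEM263 (−1.98). ARG2 passed the filter on low values only through the shRNA 2 libraries and SULF2 only through those of shRNA 1. The calls of all 6 were kept in all 21 alternative analyses where the gene was tested.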

How the results depend on the processing

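Of the 3798 genes called, 1143 (750 higher and 393 lower with shRNA 2) kept their call and sign in all 21 alternatives in which they were tested, and no gene called in both the reported and an alternative analysis had opposite signs. The number of calls depended most on the libraries of shRNA 1: leaving out 1 library at a time gave 1516 to 3694 calls, 931 to 2281 higher and 527 to 1413 lower, with 1516 without shRNA 1 replicate 1 and 1520 without shRNA 1 replicate 2. In each of these fits the lone library was assumed to vary like the other groups. With only the 4 MAPKAPK2 shRNA libraries there were 1814 calls, 1077 higher and 737 lower, from 2 residual degrees of freedom in place of 4. Rescaled to reads in nuclear genes the calls were 1446 higher and 2585 lower, and rescaled to reads in genes 1547 higher and 2319 lower, with the median of all genes moved by −0.141 and −0.112. Quantile normalization gave 1990 higher and 2016 lower, so that 49.7% of calls were higher in place of 58.4%. All other settings gave 2646 to 4667 calls, the lowest without a filter on low values and the highest with voom on the recovered reads. MAPKAPK2 kept its call and sign in all 20 alternatives in which it was tested. Of 181 named genes called, 140 kept their call in every alternative.

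With the replicate number as a replicate block, 4072 genes were called, 2396 higher and 1676 lower. The numbers share nothing else in the labels, and deviations of same-numbered libraries from their group means had an r of 0.0948 between both MAPKAPK2 shRNAs and of −0.023 to 0.227 between other groups. Depth limits low genes: 3 reads in an exon length of 1 kilobase correspond to 0.158 to 0.196 FPKM in the shRNA libraries.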
